A study of Mus musculus with 8 samples.

Results

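Hormones of the islet are made as longer precursors and are cut to size inside dense-core secretory granules, and the 10 genes described here encode the enzymes that do the cutting, their protein partners and the abundant proteins of the granule itself. They are Pcsk1, Pcsk2, Cpe, Pcsk1n, Scg5, Chga, Chgb, Scg2, Resp18 and Ptprn, chosen by name, and all 10 were found among the 24469 genes of the count table and were tested. Total RNA of islets picked by hand from mice aged 8 weeks had been sequenced in 8 libraries, 4 of wildtype C57BL/6 and 4 of the RpL13a snoRNA knockout on a C57BL/6 background. The snoRNAs of the Rpl13a introns are U32a, U33, U34 and U35a, members of the box C/D class that guides ribose methylation of RNA. The labels count 4 mice per genotype and name no treatment, and the sources used here do not state how the allele was made or whether it acts in all cells. The comparison asked how transcript levels of these genes differ between islets of both genotypes.

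Proinsulin and proglucagon leave the endoplasmic reticulum, are sorted in the trans-Golgi network into immature granules, and are cleaved there after pairs of basic residues as the granule acidifies. The convertases PC1/3 (Pcsk1) and PC2 (Pcsk2) make these cuts, carboxypeptidase E (Cpe) trims the basic residues left behind, and proSAAS (Pcsk1n) and 7B2 (Scg5) are small granule proteins that bind PC1/3 and PC2. Granins (Chga, Chgb, Scg2) are acidic cargo proteins that aggregate with hormones in the granule, while IA-2 (Ptprn) spans its membrane and Resp18 is a luminal protein related to it. All islet endocrine cells use this machinery, PC2 being prominent in alpha cells.

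The libraries held 2.12e+07 to 4.11e+07 counts assigned to genes, of which 36.7 to 41.3% fell on the ribosomal RNA precursor Rn45s. Of the targeted snoRNAs, Snord32a had 9 counts and Snord33 had 6 counts summed over wild type, and both had 0 in knockout, where a count of 0 allows up to 3 in a library. Snord34 and Snord35a had 0 counts in all 8 libraries and so check no label. The host gene Rpl13a had a log2 fold change of -0.10 ± 0.16 (edgeR adjusted p = 0.760). The share of acinar marker genes, which belong to the exocrine pancreas around islets, ran from 2.25 to 29.4% of counts in wild type and from 5.92 to 31.0% in knockout. Wild-type replicate 1 held that 29.4%, where the other 3 wild-type libraries had 2.25 to 15.8%. Knockout replicates 1 and 3 had like shares, 24.4 and 31.0%. Wild-type replicate 1 was also the lowest wild-type library for 7 of the 10 genes, so results are given with and without it. Leaving it out raises the wild-type mean of those 7 genes by construction, so calls made without it are no separate support. Xist, the transcript of the inactive X chromosome, was above 1000 counts in wild-type replicate 4 and knockout replicates 1 and 4 and at most 158 counts in the other libraries, and with that difference as a covariate, chosen after seeing the data, 0 of the 10 genes reached FDR 0.05 by edgeR. Levels are CPM, counts per 1e+06 after TMM scaling, which corrects library size for composition.

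The promoters of 9 of the 10 genes, all except Cpe, were found in a RefSeq table for GRCm38.p6. Shown here are the 250 bases before an annotated start of Scg2 (chr1:79440027-79440276, minus strand), Chgb (chr2:132781392-132781641, plus strand), Pcsk1 (chr13:75089607-75089856, plus strand) and Chga (chr12:102554691-102554940, plus strand). The bases shown for Pcsk1 lie inside the annotated gene (chr13:75089420-75134861), so the start used for it is not the first base of the gene. They were chosen because the first 3 hold a complete cyclic AMP response element, the site of CREB-family factors, and Chga holds only its core. Capitals mark each TGACG or its reverse complement, which together spell the full element where they overlap.
Scg2: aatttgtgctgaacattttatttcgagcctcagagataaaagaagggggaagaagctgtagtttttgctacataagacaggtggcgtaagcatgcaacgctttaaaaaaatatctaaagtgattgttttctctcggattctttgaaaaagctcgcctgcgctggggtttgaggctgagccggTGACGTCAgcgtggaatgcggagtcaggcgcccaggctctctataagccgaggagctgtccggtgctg
Chgb: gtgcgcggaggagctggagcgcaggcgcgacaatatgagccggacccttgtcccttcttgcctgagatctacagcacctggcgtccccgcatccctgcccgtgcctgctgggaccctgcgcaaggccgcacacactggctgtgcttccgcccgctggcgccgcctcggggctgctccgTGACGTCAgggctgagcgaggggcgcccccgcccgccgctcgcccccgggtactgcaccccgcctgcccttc
Pcsk1: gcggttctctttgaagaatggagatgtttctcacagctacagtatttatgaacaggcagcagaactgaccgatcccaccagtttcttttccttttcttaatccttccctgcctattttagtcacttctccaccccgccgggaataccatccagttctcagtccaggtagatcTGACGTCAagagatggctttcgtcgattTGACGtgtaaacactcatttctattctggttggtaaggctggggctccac
Chga: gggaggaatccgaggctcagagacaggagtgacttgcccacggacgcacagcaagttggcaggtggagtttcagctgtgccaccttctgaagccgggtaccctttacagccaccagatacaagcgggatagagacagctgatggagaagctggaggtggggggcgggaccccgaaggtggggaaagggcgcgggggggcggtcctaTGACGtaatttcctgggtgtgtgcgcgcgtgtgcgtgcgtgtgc
The palindrome TGACGTCA began 68 bases before the start in Scg2, 72 in Chgb and 78 before the start used for Pcsk1. It stood in 3 of the 10 member windows (Ptprn has a pair of starts) and in 1.79% of 32851 windows of the same 300-base length, on either strand. Its core TGACG, which also lies inside the palindrome, stood in 7 of the 10 member windows and in 20.8% of all windows, and in Chga it began 44 bases before the start. The GC box GGGCGG stood in 7 of the 10 member windows against 35.7% of all windows. Member windows had 49.3 to 76.3% GC, beside a median of 52.7% over all windows, and the part of GC content in these shares was not tested. The TATA box letters TATAAA stood in 1 member window, that of Chga, against 13.6% of all windows. That match began 5 bases past the annotated start, outside the 250 bases shown. The RE1 site of the repressor REST, with up to 3 mismatches, was found in 0 member windows and in 0.0944% of all windows. These are matches of letters and say nothing about binding.

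In wild-type islets the granin genes Scg2 and Chga had the highest mean levels of the 10 genes per length, while the granin gene Chgb stood below Scg5 and Pcsk2. Scg2, which encodes secretogranin II, was at 719 ± 52.6 CPM per kb of transcript (mean ± SD, n = 4), and Chga, chromogranin A, was at 687 ± 122 CPM per kb. Scg5 followed at 395 ± 34.5, Pcsk2 at 290 ± 29.9, Chgb (chromogranin B) at 220 ± 39.6, Cpe at 204 ± 24.5 and Resp18 at 165 ± 6.14 CPM per kb. At the low end stood Ptprn at 51.6 ± 10.2, Pcsk1n at 37.5 ± 9.15 and Pcsk1 at 26.5 ± 1.31 CPM per kb. In this order the wild-type ranges of Scg2 and Chga overlapped, as did those of Pcsk2 and Chgb, of Chgb and Cpe, of Ptprn and Pcsk1n, and of Pcsk1n and Pcsk1. The steps from Chga to Scg5, Scg5 to Pcsk2, Cpe to Resp18 and Resp18 to Ptprn were free of overlap. Lengths are those of the longest coding GENCODE transcript, 0.748 kb for Resp18 to 5.04 kb for Pcsk1, and shorter transcripts in the islet would move a level per kb.

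**Figure D1:**
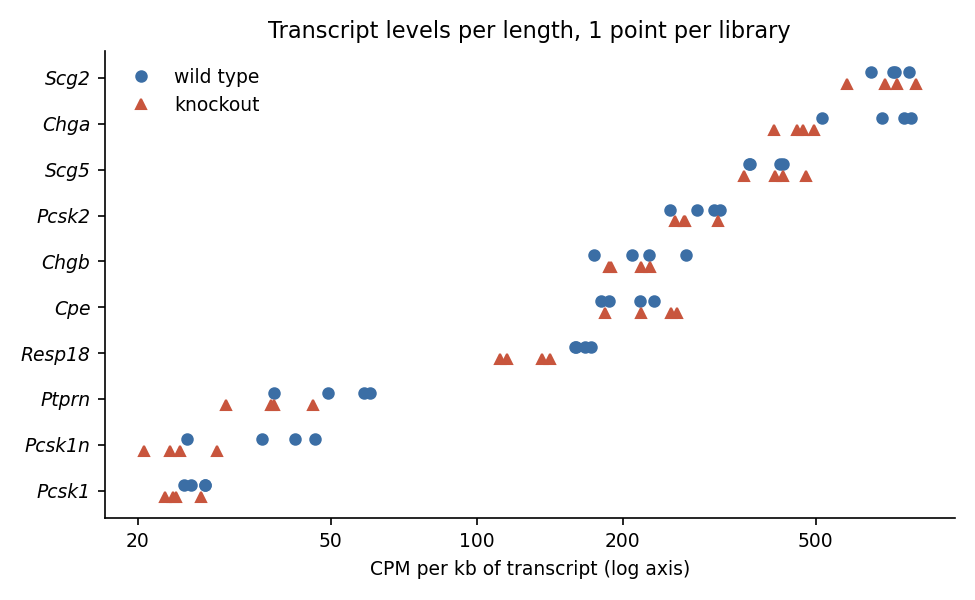
CPM per kb of transcript (log axis) for each of the 10 genes, 1 point per library, with wild type as circles and knockout as triangles (4 each). Scg2 and Chga lie highest in wild type and Pcsk1 lowest at 26.5 CPM per kb, and the knockout points of Chga and Resp18 lie below all wild-type points.

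With all 8 libraries, 0 of the 10 genes reached FDR 0.05 by the quasi-likelihood test of edgeR, adjusted over all 13617 genes tested, a threshold that 0.0147% of all genes passed. Of the 10, 4 were lower in knockout with an unadjusted p under 0.05, where 10.3% of all genes were, and 0 were higher, where 8.42% of all genes were. These were Chga, Resp18, Pcsk1n and Ptprn. The other 6, among them the convertases, Cpe and the granins Chgb and Scg2, had log2 fold changes of at most 0.16 in size in this fit. Over the 10 genes 8 had a negative log2 fold change and the median was -0.11, beside 48.7% negative and a median of 0.0098 over all genes. In whole-islet RNA, fewer cells of a type and less RNA per cell cannot be told apart.

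Chga, the granin used as a general marker of endocrine cells, had 969, 1290, 1433 and 1479 CPM in wild-type replicates 1 to 4. In knockout replicates 1 to 4 it had 936, 888, 861 and 771 CPM. The groups did not overlap, the knockout being lower, and the nearest to them was wild-type replicate 1. The means were 1293 ± 230 and 864 ± 69.0 CPM (SD, n = 4 each), a log2 fold change of -0.58 ± 0.14 (SE) with an edgeR adjusted p of 0.142. The genotypes were likewise free of overlap for Resp18 alone among the other 9 genes, so that 2 of 10 were lower without overlap, beside 4.66% of all genes, and 0 were higher without overlap, beside 3.68%.

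Chgb, the partner granin of Chga, had 478, 621, 572 and 738 CPM in wild-type islets and 514, 623, 519 and 597 CPM in knockout. The knockout libraries lay inside the wild-type range, and the log2 fold change was -0.097 ± 0.14 (edgeR adjusted p = 0.731), with a positive sign of 0.024 once the acinar share was a covariate. Scg2 had 1636, 1813, 1958 and 1828 CPM in wild-type islets and 1458, 2025, 1846 and 1745 CPM in knockout, both the lowest and the highest value falling in the knockout. Its log2 fold change was -0.033 ± 0.13 (edgeR adjusted p = 0.907), a sign that turned with the acinar covariate (0.012).

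Resp18 had 125, 120, 119 and 129 CPM in wild-type islets and 106, 86.3, 83.5 and 102 CPM in knockout. Its wild-type libraries were the most even of the 10 genes, with a coefficient of variation of 3.73%, and wild-type replicate 1 was not low. The log2 fold change was -0.38 ± 0.10 (edgeR adjusted p = 0.144). Ptprn, known in humans as an autoantigen of type 1 diabetes, had 136, 208, 214 and 175 CPM in wild-type islets and 136, 163, 134 and 108 CPM in knockout. Wild-type replicate 1 lay within the knockout range, and the log2 fold change was -0.44 ± 0.16 (edgeR adjusted p = 0.204). Ptprn and Resp18 are neighbours on chromosome 1 in GRCm38.p6 (chr1:75247035-75264497 and chr1:75272197-75278415), with 7699 bases and 0 annotated genes between them.

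Pcsk1n, the proSAAS gene, had 55.5, 92.6, 79.0 and 102 CPM in wild-type islets and 63.9, 53.5, 51.1 and 45.1 CPM in knockout. The groups overlapped only through wild-type replicate 1, which was below knockout replicate 1. Its log2 fold change of -0.62 ± 0.18 was the most negative of the 10 genes (edgeR adjusted p = 0.152). Scg5, the 7B2 gene, lay at 440 to 516 CPM in wild-type islets and 430 to 577 CPM in knockout, with overlapping groups. Its log2 fold change was 0.083 ± 0.12 (edgeR adjusted p = 0.727), and the sign turned to -0.024 without a composition factor.

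The processing enzymes had overlapping groups throughout. Pcsk1 lay at 126 to 139 CPM in wild-type islets and 115 to 136 CPM in knockout islets, and its log2 fold change was -0.12 ± 0.093 (edgeR adjusted p = 0.489). Pcsk2 lay at 1182 to 1498 CPM in wild-type islets and 1211 to 1484 CPM in knockout. Its log2 fold change was -0.068 ± 0.12 (edgeR adjusted p = 0.786), with 0.011 under the acinar covariate. Cpe lay at 382 to 492 CPM in wild-type islets and 389 to 547 CPM in knockout islets, and had the highest log2 fold change of the 10 genes at 0.16 ± 0.14 (edgeR adjusted p = 0.536). Pcsk2 overlaps Pcsk2os1 and Pcsk2os2 in the annotation, which held 225 to 892 counts per library, and since strand is not given its reads cannot be told apart from theirs. Counts of Pcsk2 and Scg2 are not whole in the deposited table, so some of their reads were divided by the authors' counting.

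**Figure D2:**
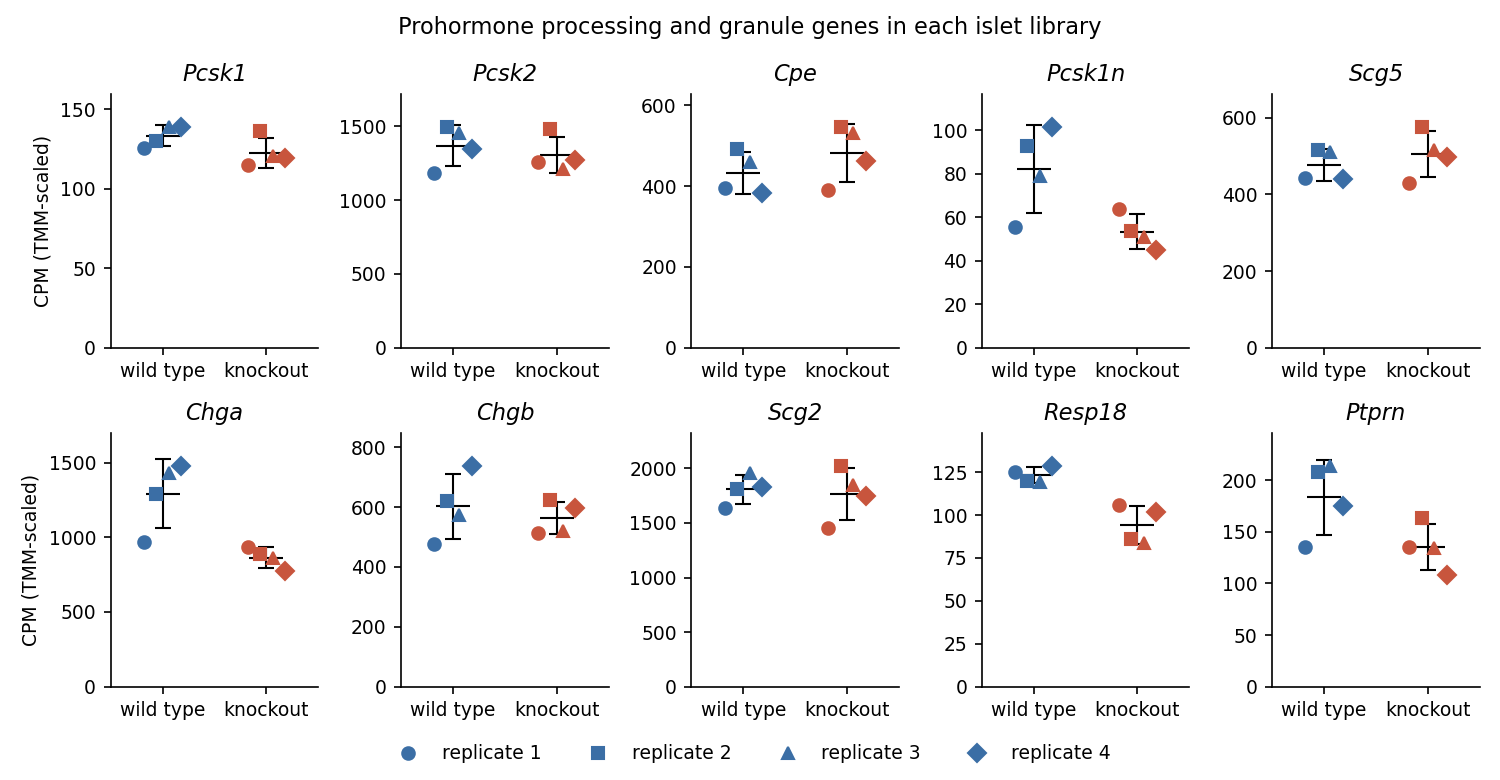
CPM of each of the 10 genes in wild-type (blue) and knockout (red) libraries. Marker shapes stand for the replicate number, horizontal bars for the mean and vertical bars for 1 SD (n = 4), and all axes start at 0. Chga and Resp18 are the genes whose groups do not overlap, and wild-type replicate 1 (circle) is the lowest wild-type point for 7 of the 10.

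Leaving out wild-type replicate 1 changed the calls. For Chga, Pcsk1n and Ptprn it was the lowest wild-type library, so a more negative fold change without it was built into that choice. In edgeR's test of the other 7 libraries, 4 of the 10 genes passed FDR 0.05 as lower in the knockout, where 6.08% of all 13874 genes tested did. These were Chga (log2 fold change -0.71, adjusted p = 0.0087), Pcsk1n (-0.79, adjusted p = 0.010), Ptprn (-0.57, adjusted p = 0.029) and Resp18 (-0.39, adjusted p = 0.045). The other 6 did not pass, Chgb being nearest at -0.21 (adjusted p = 0.289). Leaving out each of the other 7 libraries in turn gave 0 calls among the 10. With all 8 libraries, DESeq2 called Chga, Pcsk1n and Resp18 lower (3.29% of the 9932 genes to which it gave an adjusted p were called lower), and limma-voom with library weights called the same genes (2.35%), while limma-voom without weights and limma-trend called 0. When wild-type replicate 1 was left out and the acinar share was also a covariate, an alternative chosen after seeing the data, Chga alone passed (log2 fold change -0.74, edgeR adjusted p = 0.039).

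Of the 4 genes with an unadjusted p under 0.05, 3 had GC-rich transcripts. The longest coding transcripts of Ptprn, Chga and Pcsk1n had 59.5, 58.4 and 57.3% GC, the highest of the 10 genes, and Pcsk1 the lowest at 40.6%. Across all tested genes the median log2 fold change ran from 0.22 in genes of at most 40% GC, over -0.065 at 50 to 55%, to -0.30 in genes above 60%. With each library's GC trend removed, an alternative chosen after seeing the data, the log2 fold changes were -0.36 for Chga (edgeR adjusted p = 0.307), -0.43 for Pcsk1n (0.30) and -0.19 for Ptprn (0.574). That of Resp18, at 50.9% GC, was -0.37 (0.278) and stayed near its value in the first fit. The part of GC content in the differences was not tested beyond these values. Pcsk1 moved to -0.33 (0.291), so that under this setting it stood beside Chga and Resp18.

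**Figure D3:**
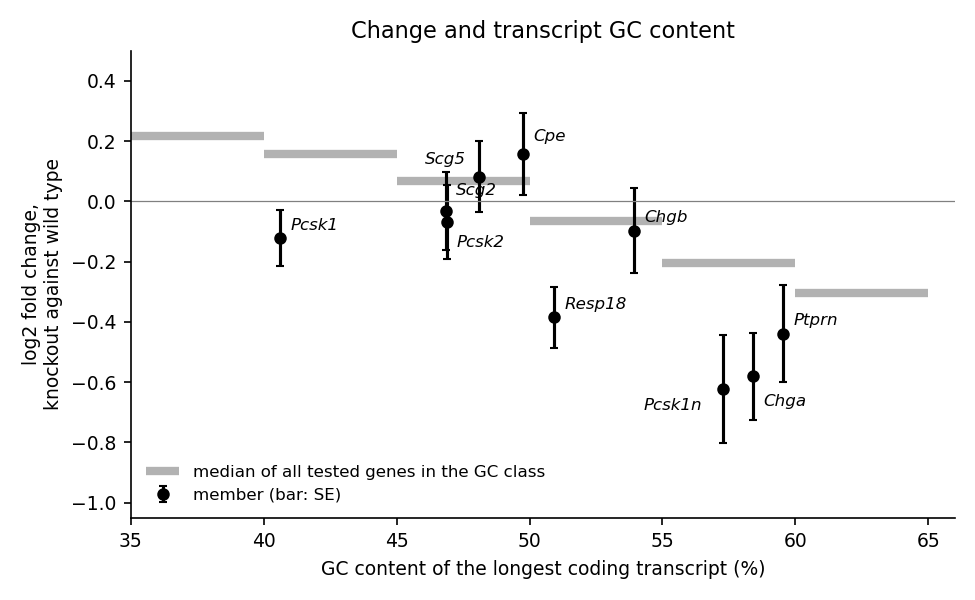
Log2 fold change (knockout against wild type, bars are SE) of the 10 genes against the GC content of their longest coding transcript in percent. Grey bars give the median of all tested genes in each GC class, with the outer classes drawn to 35 and 65%. Ptprn, Chga and Pcsk1n lie at 57.3 to 59.5% GC and below the median of their class. Resp18 lies below its class at 50.9%, and Pcsk1 lies below its class at 40.6%. Pcsk2, Scg2 and Chgb also lie below the median of their class, and Cpe and Scg5 lie above it.

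**Figure D4:**
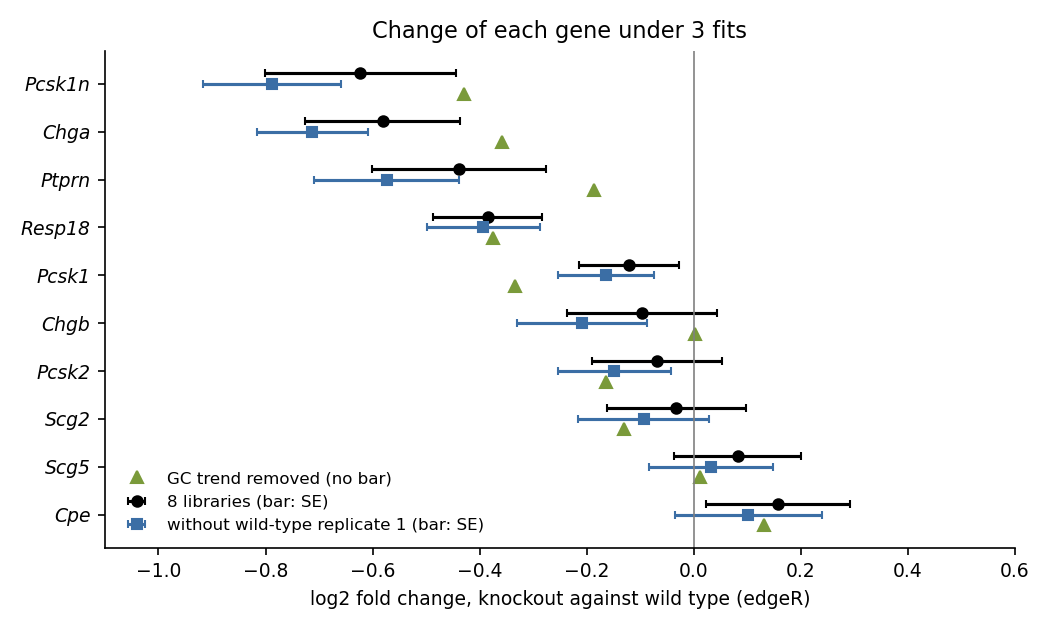
Log2 fold change of each gene in edgeR with all 8 libraries (black, bar is SE), without wild-type replicate 1 (blue, bar is SE) and with the GC trend removed (green, no bar). Without wild-type replicate 1 Pcsk1n, Chga and Ptprn move further below 0, and with the GC trend removed they move toward 0, Ptprn from -0.44 to -0.19, while Resp18 stays between -0.39 and -0.37.

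Ratios of paired genes within a library do not depend on library scaling. In all, 8 were compared by exact two-sided permutation tests over 70 splits, whose smallest p is 0.0286. The ratios were not adjusted for GC content, which differs within pairs, as for Pcsk1n (57.3%) and Pcsk1 (40.6%). With the GC trend removed, the separate log2 fold changes were -0.43 for Pcsk1n and -0.33 for Pcsk1. Those of the granins were -0.36 for Chga, 0.0028 for Chgb and -0.13 for Scg2. The log2 ratio of Chgb to Chga was -1.02, -1.06, -1.32 and -1.0 in wild type and -0.86, -0.51, -0.73 and -0.37 in knockout. Every knockout library lay above every wild-type library, so Chgb counts were 0.466 of Chga counts on geometric average in wild type and 0.651 in knockout. The difference of 0.48 reached the smallest p the test allows (exact permutation p = 0.0286), but not after adjustment over the 8 ratios (0.114). The log2 ratio of Scg2 to Chga was 0.53 higher in knockout (exact permutation p = 0.0571, adjusted 0.114), with knockout replicate 1 inside the wild-type range.

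Pcsk1n counts relative to its enzyme partner Pcsk1 had log2 ratios of -1.18, -0.49, -0.81 and -0.45 in wild type and -0.84, -1.35, -1.24 and -1.40 in knockout. The difference was -0.47, with wild-type replicate 1 inside the knockout range and knockout replicate 1 inside the wild-type range (exact permutation p = 0.0571, adjusted 0.114). Cpe relative to Pcsk1 was 0.28 higher in knockout on the log2 scale (exact permutation p = 0.0571, adjusted 0.114), and Scg5 relative to Pcsk2 was 0.15 higher (p = 0.114 in the exact permutation test, adjusted 0.183). The ratio of both convertases, Pcsk1 to Pcsk2, had log2 means of -3.36 ± 0.13 in wild type and -3.41 ± 0.060 in knockout (SD, n = 4 each; exact permutation p = 0.486, adjusted 0.555). Ptprn relative to its paralog Ptprn2 had a log2 difference of -0.23, knockout minus wild type (exact permutation p = 0.143, adjusted 0.190). Resp18 relative to its neighbour Ptprn differed by 0.040 (exact permutation p = 0.857). None of the 8 ratios passed after adjustment, which does not show that the other ratios are alike in both genotypes.

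**Figure D5:**
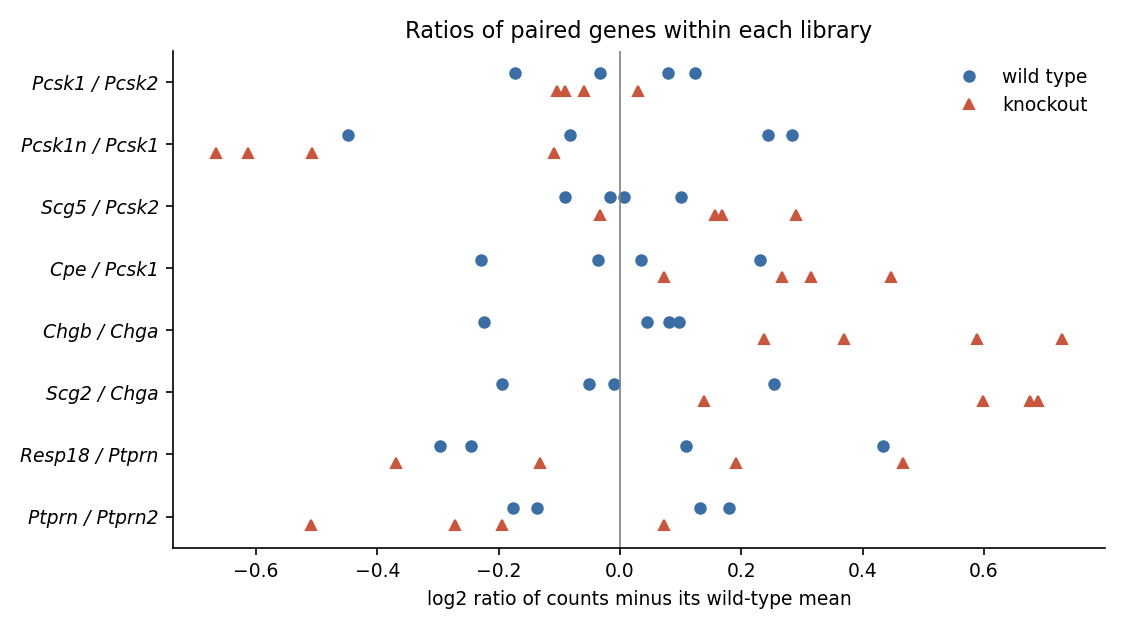
Log2 ratio of counts of paired genes in each library after subtracting the wild-type mean of that ratio, with wild type as circles and knockout as triangles (4 each). For Chgb to Chga every knockout point lies right of every wild-type point, a mean difference of 0.48, while for Pcsk1 to Pcsk2 and Resp18 to Ptprn the groups overlap.

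The rest of the pathway was described from 3 lists. By edgeR 0 of their 56 tested genes reached FDR 0.05, and 12 had an unadjusted p under 0.05. Among 15 other processing enzymes, 2 were lower and 2 higher at an unadjusted p under 0.05, where 10.3% and 8.42% of all genes were, and the median log2 fold change was 0.085. Pcsk4, a convertase known from mouse testis, averaged 6.33 ± 1.74 CPM in the 4 wild-type libraries against 3.51 ± 0.35 CPM in the 4 knockout libraries (SD), without overlap (log2 fold change -0.85 ± 0.20). Ece1, the endothelin-converting enzyme gene, had a log2 fold change of -0.45 ± 0.16, and Cpd, a carboxypeptidase of the trans-Golgi network, one of 0.22 ± 0.081. Cpd lay at 38.5 to 43.7 CPM in wild-type islets and 45.8 to 48.9 CPM in knockout, without overlap. The convertase gene Pcsk5, at 0.59 CPM in wild type, had a log2 fold change of 0.76 ± 0.31.

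Among 14 other cargo genes, 4 were lower and 0 higher at an unadjusted p under 0.05, beside 10.3% and 8.42% of all genes, with a list median of 0.093. The named genes were Ucn3, urocortin 3 of beta cells, at -0.66 ± 0.14 and Nucb1, a calcium-binding protein of the Golgi, at -0.44 ± 0.11, with Ghrl (ghrelin) at 1.42 ± 0.68 and Sst (somatostatin) at 0.18 ± 0.13. Knockout libraries of Ucn3 had 179 to 204 CPM and wild-type libraries 221 to 363 CPM, and Nucb1 was likewise free of overlap. In this list 3 genes were lower without overlap and 0 higher, beside 4.66% and 3.68% of all genes. The remaining gene was Ins2, at -0.58 ± 0.16. Ghrl was at most at 1.09 CPM in any library. Among 27 genes of the granule membrane and of granule maturation, 4 were lower and 0 higher at an unadjusted p under 0.05, beside the same 10.3% and 8.42% of all genes, with a list median of -0.055. Rab3a, a GTPase of granule docking, had a log2 fold change of -0.47 ± 0.13 and Atp6v0a1, a subunit of the proton pump that acidifies granules, one of -0.36 ± 0.12. Tmem27 (collectrin) had one of 0.24 ± 0.13 and Slc18a2, the vesicular monoamine transporter, one of 0.41 ± 0.22. Without wild-type replicate 1, 9 of the 56 genes reached FDR 0.05 by edgeR, all lower, where 6.08% of all genes did as lower. Of those, Pcsk4, Ece1, Ucn3, Nucb1, Rab3a and Atp6v0a1 are named for their smallest p, and the other 3, Ins2, Ptprn2 and Syt7, are named after their values were seen. DESeq2 called 6 of the genes in these lists lower, beside 3.29% of the genes to which it gave an adjusted p, and limma-voom with library weights 5, beside 2.35% of all genes.

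Marker lists of islet and other cells are given beside these genes, and 0 of their genes reached FDR 0.05 by edgeR. The 8 pan-endocrine markers, transcription factors and synaptophysin, summed to 477 to 643 CPM in wild-type islets and 463 to 476 CPM in knockout, with 6 of 8 negative log2 fold changes. The 10 beta-cell markers summed to 1.35e+05 to 1.84e+05 CPM in wild-type islets and 1.06e+05 to 1.34e+05 CPM in knockout, with 9 of 10 negative; 5 of these 10 genes are also in the cargo or membrane lists. The 8 alpha-cell markers summed to 3398 to 3955 and 3113 to 5108 CPM and the 6 delta, PP and epsilon markers to 767 to 898 and 656 to 1197 CPM, in wild type and knockout respectively. Log2 fold changes were positive for 7 of the 8 alpha-cell markers and 6 of the 6 delta, PP and epsilon markers. The list medians of these were 0.20 and 0.41, beside -0.15 for the pan-endocrine and -0.41 for the beta-cell markers. At an unadjusted edgeR p under 0.05, 6 of 10 beta-cell and 3 of 8 pan-endocrine markers were lower, beside 4 of the 10 granule genes. Without overlap, 4, 2 and 2 were lower, in that order. In these lists 0 were higher by either measure, and 0 alpha-cell or delta, PP and epsilon markers were lower or higher. Lower levels were thus not particular to the granule genes. Ins1 and Ins2 averaged 42516 and 115350 CPM in wild type, most of the mean beta-cell sum of 167105 CPM. Of the acinar markers 37 were in the table, and they summed to 1.68e+04 to 3.95e+05 CPM in wild-type islets and 4.50e+04 to 4.42e+05 CPM in knockout, with 36 of 36 tested positive. Ductal (9 genes), endothelial (8) and macrophage (8) markers summed to at most 122, 223 and 46.6 CPM in any library, and none of the markers was at 0 in all libraries. The part of cell composition in the differences above was not tested. When the acinar share entered the fit, the log2 fold changes were -0.51 for Chga, -0.46 for Pcsk1n, -0.40 for Resp18 and -0.33 for Ptprn, with edgeR adjusted p-values from 0.205 to 0.334.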

How the data were processed

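Libraries were made from islet RNA with the SeqPlex amplification kit, per the labels' protocols. STAR 2.4.1, Partek and mm9 are named in the submitters' processing notes, with roles, annotation and strandedness not given in the sources used here. One deposited table holds estimated counts made by the authors, of which 9.98 to 12.4% per library were not whole (tolerance 0.01), and these were rounded. The second deposited table holds RPM made by the authors, the count over 1 constant per library plus 0.0001, and served only as an alternative.

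Counts were tested with edgeR 4.0.16 (R 4.3.3; TMM, filterByExpr, robust quasi-likelihood F-test without covariates, Benjamini-Hochberg over 13617 genes). SEs are derived from the F statistic. Alternatives used DESeq2 1.42.0, limma 3.58.1 and others. The fits were tested on simulated counts. The replicates come from different mice. Depth was 2.12e+07 to 4.11e+07 counts, and limits from counts cover counting error only, as amplified reads are not independent molecules. The closest pair of libraries differed by 26.4 times sampling noise.

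Members, lists and alternatives were chosen with earlier results of these data known. Text names all 10 members and up to 2 genes of smallest p per direction in each of 3 other lists. It also names the 5 genes outside all lists most like the members by correlation. GC content and lengths came from GENCODE M21 (GRCm38; 98.5% of genes matched), promoters from RefSeq. No gene coordinates are given for mm9.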

Additional observations from a re-analysis of the deposited data

Results flagged for a closer look

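Among 60 groups of 4 values examined with Dixon's test, 4 held a value far from the other 3, where chance gives about 1 in 20 groups, or 3. The log2 ratio of Chgb to Chga was -1.32 in wild-type replicate 3, below the -1.06 to -1.0 of the other wild-type libraries. The log2 ratio of Scg2 to Chga was 0.64 in knockout replicate 1, against 1.10 to 1.19 in the other knockout libraries. Slc18a2 was at 3.16 CPM in wild-type replicate 1 and at 1.87 to 2.05 CPM in the other wild-type libraries. Ghrl was at 0.044 CPM in knockout replicate 3 and at 0.95 to 1.09 CPM in the other knockout libraries.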

How the results depend on the processing

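The 2 genes past FDR 0.05 among all genes became 48 without a composition factor, 526 with DESeq2, 549 with limma-voom and library weights, 5 with limma-trend on RPM plus 0.1, 255 without wild-type replicate 1 and with the acinar covariate, and 2 to 1313 when leaving out 1 library at a time (1313 without wild-type replicate 1, 5 without knockout replicate 4). The count among the 10 genes, 0 at first, was 3 with DESeq2, 3 with library weights, 1 without wild-type replicate 1 and with the acinar covariate, and 0 to 4 with 1 library left out. In the 3 other lists it was 6, 5 and 3 under those settings and 0 to 9 with 1 library left out. The median over these leave-one-out fits ran from -0.19 to -0.085. The median over the 10 genes, -0.11, was -0.25 with limma-trend on RPM plus 1 and -0.25 plus 0.1, where the median over all genes was -0.088 and -0.13. Without a composition factor the median over all genes was -0.11, and relative to that shift Scg5, at -0.024, was still higher; it was -0.067 and -0.068 in both limma-trend fits. With the acinar covariate Pcsk2 was 0.011, Chgb 0.024 and Scg2 0.012, and with the GC trend removed Chgb was 0.0028. With 1 library left out, Chgb ran from -0.21 to 0.016 and Scg2 from -0.10 to 0.037. Chga, Pcsk1n, Resp18 and Ptprn had negative values in all 27 alternatives, Chga from -0.74 to -0.36. A constant sign was not particular to them. Pcsk1 was also negative in all 27, from -0.33 to -0.090, and Cpe was positive in all 27. The alternative with an FDR of 0.10 reuses the first fit, so its signs could not differ. The ratio of Chgb to Chga ran from 0.40 to 0.56 with 1 library left out (exact permutation p = 0.0286 without a knockout library and 0.0571 without a wild-type library), that of Scg2 to Chga from 0.46 to 0.65 and that of Resp18 to Ptprn from -0.10 to 0.18. The causes of these moves were not tested. Same-numbered libraries correlated at 0.038, 0.21, 0.16 and 0.15 in their deviations from the genotype means. Wild-type replicates 2, 3 and 4 each correlated best with the knockout of the same number. Wild-type replicate 1 correlated best with knockout replicate 3 (0.29). These values do not decide whether the numbers mark pairs, so the first fit took none and a replicate block was an alternative. With a replicate block the gene count stayed at 2, and the Chgb to Chga ratio of 0.48 had an exact sign-flip p of 0.125, the smallest that 16 flips allow. Each of the 10 genes had at least 1087 counts in each library.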

Other observations

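Levels within each genotype over the 8 libraries were compared with the mean of the 10 genes. The candidates were 1617 genes outside all lists used here, with a mean log2 CPM of at least 5. Genes of the pathway and marker lists could therefore not appear. The closest were Cacna1c (Pearson r = 0.94), Sez6l2 (0.94), Pianp (0.93), Fam134a (0.93) and Araf (0.92). Spearman's rho ran from 0.83 to 0.98, a description in which the values share libraries and scaling. Cacna1c, a pore subunit of L-type calcium channels, had 51.3, 79.8, 76.5 and 72.0 CPM in wild type and 50.6, 56.9, 55.2 and 51.1 CPM in knockout. As for most of the 10 genes, its wild-type replicate 1 was the lowest wild-type library.

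Some granule proteins are also made by nerve cells, whose markers summed to 25.1 to 37.3 CPM in wild type and 21.2 to 28.7 CPM in knockout. Of these, Th (tyrosine hydroxylase) was at 19.0 ± 4.07 and 15.8 ± 1.43 CPM (SD, n = 4 each), and Dbh (dopamine beta-hydroxylase) had 2 counts over all libraries. Tubb3, a neuronal tubulin gene singled out after its values were seen, had 6.52, 10.8, 10.6 and 9.36 CPM in wild type and 6.35, 4.92, 3.75 and 5.27 CPM in knockout. The groups did not overlap, with a log2 fold change of -0.88 ± 0.19 (edgeR adjusted p = 0.116).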
